A study of Mus musculus with 6 samples.

Results

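The 8 genes of the γδ T cell receptor described here were measured in 6 RNA-seq libraries of cultured mouse CD8+ effector T cells (Teff), 3 from WT and 3 from Scd-1-/- mice. The 8 rows, of 34745 genes in the count tables, are the γ constant genes Tcrg-C1, Tcrg-C2 and Tcrg-C4, the γ variable genes Tcrg-V4 and Trgv2, the δ constant gene Trdc and the δ variable genes Trdv1 and Trdv5. They were picked by gene name with their higher level in Scd-1-/- Teff already known, so the difference between the genotypes in these 8 genes is given as a description, with no test.

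WT mice were C57BL/6J animals that were bought, and Scd-1-/- mice (B6.129-Scd1tm1Ntam/J) came as a gift and lack Scd1, which encodes a stearoyl-CoA desaturase, in every tissue. All were males aged 6 to 8 weeks. The genotype cannot be told apart from the source of the mice, and no loss restricted to T cells was studied. CD8+ T cells of the spleen were enriched with a magnetic kit and cultured for 3 days with 5 μg/mL anti-CD3, 0.5 μg/mL anti-CD28 and 100 U/mL IL-2. A further 3 days with IL-2 followed, and RNA was taken on day 6. The labels do not say whether libraries of a genotype came from separate mice or cultures, so standard errors and p-values measure the spread between these libraries, which may be technical.

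The libraries held 14034479 to 15866216 counts. A count of 0 allows up to 3 counts, which were 0.189 to 0.214 CPM (counts scaled to the library total) at this depth, and this limit covers counting error only. The CPM values below were also scaled by a TMM factor, edgeR's correction for each library, which lay between 0.986 and 1.03. Scd1 had 3074 to 4272 counts in the WT libraries and 20 to 36 in the Scd-1-/- libraries, as the labels require. Replicate 1 of both genotypes stood apart on the first principal component of all genes (44.2% of the variance), and the genotypes separated on the second (36.2%). The CD8 genes Cd8a and Cd8b1, and Cd3e, a CD3 gene of T cells in general, were high in every library: Cd8a had 3026 to 5150 counts, Cd8b1 4228 to 7422, and Cd3e 5538 to 8198.

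A γδ T cell carries a receptor made of a γ and a δ chain, each with a variable domain that meets the antigen and a constant domain that anchors the chain beside the CD3 proteins. The mouse γ locus is a row of cassettes in which variable genes lie near a joining segment and a constant gene of their own. The δ locus lies inside the α locus, so that rearrangement of an α gene usually deletes δ on that chromosome, whereas γ genes can be rearranged and transcribed in αβ T cells too. In bulk RNA, more cells of a type and more RNA per cell cannot be told apart.

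The sequences show how far the reads of one γ gene can be assigned to it, and are taken from GENCODE M21 transcripts on GRCm38. The first exon of each γ constant gene encodes most of the constant domain. Its first 90 bases are printed for the γ constant genes of the set, with Tcrg-C2 as the base of comparison and every base that differs from it in capitals. They lie at chr13:19307462-19307551 on the minus strand (Tcrg-C2), chr13:19214103-19214192 on the plus strand (Tcrg-C1) and chr13:19344558-19344647 on the plus strand (Tcrg-C4).
Tcrg-C2: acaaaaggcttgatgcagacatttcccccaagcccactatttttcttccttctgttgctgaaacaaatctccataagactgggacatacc
Tcrg-C1: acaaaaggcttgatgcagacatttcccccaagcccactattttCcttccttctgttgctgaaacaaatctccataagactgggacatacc
Tcrg-C4: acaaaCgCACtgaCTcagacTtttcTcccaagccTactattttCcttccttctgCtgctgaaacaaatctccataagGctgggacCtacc

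Tcrg-C1 differed from Tcrg-C2 at 1 of these bases and Tcrg-C4 at 13. Over the whole first exon of 330 bases, Tcrg-C1 and Tcrg-C2 were 97.3% identical and Tcrg-C4 and Tcrg-C2 81.5%. Of all 50-base stretches of the Tcrg-C1 transcript, 34.2% were also present in Tcrg-C2 or Tcrg-C3. For Tcrg-C2 the share was 25.4%, and for Tcrg-C4 it was 0. The sources used here do not give the handling of reads with several matches, so the split between Tcrg-C1 and Tcrg-C2 is uncertain and that between either of them and Tcrg-C4 is less so.

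The hinge that joins the constant domain to the membrane is the part in which the γ constant genes differ most, and its exons are printed for that reason: 30 bases in Tcrg-C2 (chr13:19305769-19305798, minus strand), 45 in Tcrg-C1 (chr13:19215864-19215908, plus strand), and 54 and 45 in the 2 hinge exons of Tcrg-C4 (chr13:19349536-19349589 and chr13:19350330-19350374, plus strand).
Tcrg-C2 hinge: ttgctacaacttgctggcaagataaaaatg
Tcrg-C1 hinge: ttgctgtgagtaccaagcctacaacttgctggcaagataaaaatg
Tcrg-C4 hinge, first exon: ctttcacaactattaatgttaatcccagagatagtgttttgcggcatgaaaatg
Tcrg-C4 hinge, second exon: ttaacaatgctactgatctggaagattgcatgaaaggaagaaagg

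Near their end, where the joining segment is added, the variable genes hold the cysteine codon that opens the antigen-binding loop. The last 45 coding bases of each are printed with the last in-frame cysteine codon in capitals, for Trgv2 (chr13:19336573-19336617, minus strand), Tcrg-V4 (chr13:19185462-19185506, plus strand), Trdv1 (chr14:53882173-53882217, plus strand) and Trdv5 (chr14:54148662-54148706, minus strand).
Trgv2: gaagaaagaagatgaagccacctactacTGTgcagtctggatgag
Tcrg-V4: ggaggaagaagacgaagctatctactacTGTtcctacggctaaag
Trdv1: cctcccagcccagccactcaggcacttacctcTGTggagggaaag
Trdv5: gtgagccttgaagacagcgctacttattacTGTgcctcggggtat

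Trgv2 and Tcrg-V4 were 68.6% identical over their coding sequence, and Trgv2 shared 7.01% of its 50-base stretches with Tcrg-V1 or Tcrg-V3. Trdv1 shared none with another gene. Trdv5 lies downstream of Trdc on the opposite strand, and its last 207 bases (chr14:54148662-54148868) overlap the last exon of Trdc. The methods of the study name a stranded kit and the labels another kit, so it is not settled whether the counting used strand, and counts of Trdv5 may include reads of Trdc and the reverse.

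Tcrg-C2 was the most abundant of the 8 genes in each library (chr13:19304649-19307551, minus strand). Its level in FPKM, which divides the fragments of a gene by its transcript length and the library total, was 112, 85.6 and 113 in WT replicates 1 to 3 and 155, 265 and 317 in Scd-1-/- replicates 1 to 3. All Scd-1-/- libraries lay above all WT libraries, and Scd-1-/- replicate 1 was the lowest of its genotype. The mean FPKM was 103 ± 15.4 (SD, n = 3) in WT and 246 ± 82.4 in Scd-1-/- Teff, and the log2 fold change was 1.27 (SE 0.263).

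Tcrg-C4, the constant gene of the last cassette of the γ locus (chr13:19344558-19352756, plus strand), had an FPKM of 12.0, 10.5 and 17.3 in WT and 21.8, 76.8 and 77.6 in Scd-1-/- Teff. The groups did not overlap, and Scd-1-/- replicate 1 lay closer to the WT libraries than to replicates 2 and 3, whose mean was 3.53 times its value. The log2 fold change was 2.17 (SE 0.468).

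Tcrg-C1, the constant gene of the cassette that also holds Tcrg-V4 (chr13:19214103-19217024, plus strand), had an FPKM of 5.92, 4.40 and 8.98 in WT and 12.3, 29.5 and 29.5 in Scd-1-/- Teff. Again the groups did not overlap, with replicate 1 the lowest in Scd-1-/- Teff. As log2 fold change this was 1.91 (SE 0.404).

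Trgv2 is the variable gene that lies next to Tcrg-C2 on its strand (chr13:19336573-19337167, minus strand). Its FPKM was 56.3, 57.5 and 62.6 in WT and 74.2, 150 and 153 in Scd-1-/- Teff. The WT libraries were close to each other (58.8 ± 3.35, SD, n = 3), the lowest Scd-1-/- library was 1.24 times the highest WT library in CPM, and the log2 fold change of 1.12 (SE 0.275) was the smallest of the 8.

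Tcrg-V4 (chr13:19184974-19185506, plus strand) was lower, with 22, 11 and 31 counts in WT and 58, 139 and 118 in Scd-1-/- Teff. In FPKM these were 3.40, 1.84 and 5.12 against 8.74, 23.1 and 17.5. The groups did not overlap, and the log2 fold change was 2.27 (SE 0.481).

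**Figure D1:**
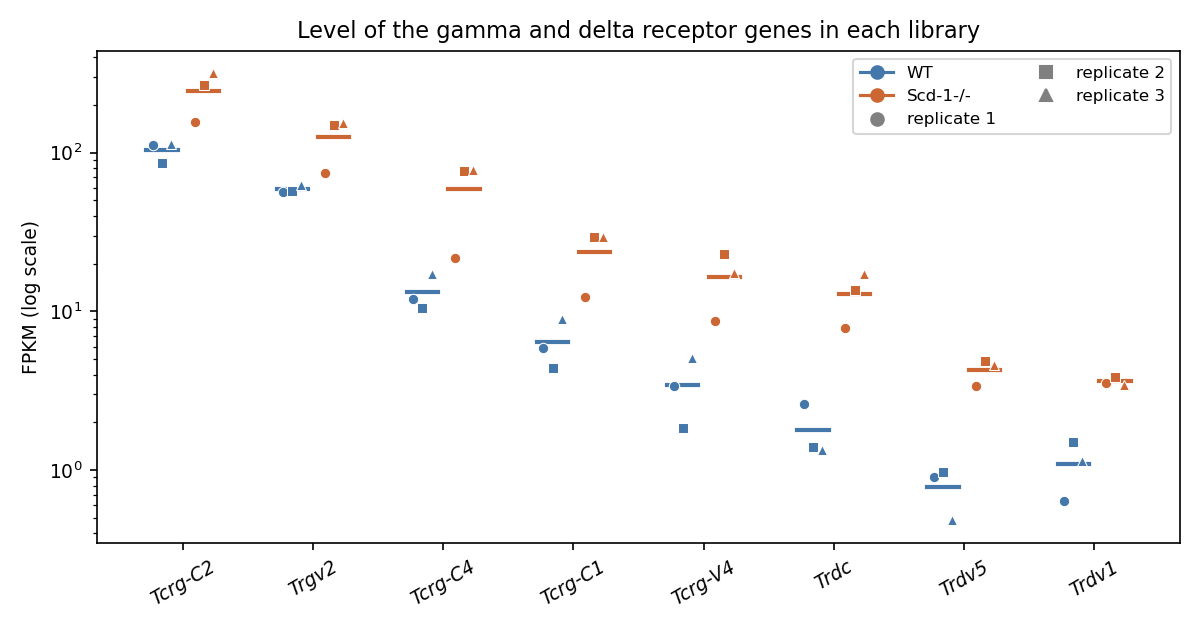
Level of the 8 γδ receptor genes in FPKM (log axis) in each library, WT in blue and Scd-1-/- in orange, with a marker shape per replicate and a line at the group mean. For each gene the 3 Scd-1-/- libraries sit above the 3 WT libraries, and Tcrg-C2 is the highest gene in both genotypes.

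Trdc, the δ constant gene (chr14:54142851-54148868, plus strand), had 153, 76 and 73 counts in WT and 471, 741 and 1046 in Scd-1-/- Teff. The FPKM was 2.61, 1.40 and 1.33 against 7.83, 13.6 and 17.1, the groups did not overlap, and the lowest Scd-1-/- library had 2.99 times the CPM of the highest WT library. At 2.86 (SE 0.388), its log2 fold change was the largest of the 8.

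Trdv5 had 6, 6 and 3 counts in WT and 23, 30 and 32 in Scd-1-/- Teff (log2 fold change 2.43, SE 0.4), and its groups did not overlap. With so few counts in WT, the size of this fold is imprecise, and the overlap with Trdc described above holds for it. Trdv1, on the plus strand upstream of Trdc (chr14:53881612-53882217), had 6, 13 and 10 counts in WT and 34 in each Scd-1-/- library, with no overlap and a log2 fold change of 1.75 (SE 0.368). It was the one gene of the set in which Scd-1-/- replicate 1 did not lie well below replicates 2 and 3, whose mean FPKM was 1.04 times that of replicate 1. The deposited FPKM of Trdv1 implies a length of 619 bases, against 337 in GENCODE M21, so its level compares less well with those of the other genes.

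Each of the 8 genes reached a mean FPKM of 1, and in each the Scd-1-/- libraries all lay above the WT libraries, which was also so for 8.4% of the 9627 genes that reached it. All 8 genes, and 1.94% of those 9627, had log2 fold changes of 1 or more. The median log2 fold change was 2.04 over the 8 and 0.0 over the 9627. Since the genes were chosen for this contrast, nothing is read from these shares.

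The order of levels from Tcrg-C2 through Trgv2, Tcrg-C4 and Tcrg-C1 to Tcrg-V4 was the same in all 6 libraries. Across libraries, the ranges of FPKM of neighbours in this order overlapped for Tcrg-C1 and Tcrg-V4 in WT, and in Scd-1-/- Teff for Trgv2 and Tcrg-C4, Tcrg-C4 and Tcrg-C1, and Tcrg-C1 and Tcrg-V4. Trdc, Trdv5 and Trdv1 took the last places. The range of Trdc overlapped that of Tcrg-V4 in both genotypes. In WT, Trdv1 (0.639 to 1.50) overlapped Trdc (1.33 to 2.61) and Trdv5 (0.482 to 0.976), which did not overlap each other. In Scd-1-/- Teff, Trdc (7.83 to 17.1) lay above Trdv5 (3.37 to 4.86) and Trdv1 (3.46 to 3.89), which overlapped.

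The γ chain genes far outnumbered the δ chain genes. The 5 γ genes together had 2252, 1707 and 2296 counts in WT and 3348, 6053 and 7550 in Scd-1-/- Teff, or 121 to 156 CPM against 218 to 482. The 3 δ genes had 165, 95 and 86 counts against 528, 805 and 1112, or 5.86 to 11.0 CPM against 34.3 to 71.0. The log2 ratio of the mean CPM, Scd-1-/- over WT, was 1.40 for the γ sum and 2.78 for the δ sum. Per length, the FPKM of Trdc was 0.0234, 0.0164 and 0.0118 times that of Tcrg-C2 in WT and 0.0504, 0.0512 and 0.0539 times in Scd-1-/- Teff. This ratio was thus close among the Scd-1-/- libraries and lower, with no overlap, in WT.

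The mix of γ constant genes also varied between libraries. Of the counts of the 3 γ constant genes, Tcrg-C2 took 85.5%, 84.5% and 80.3% in WT and 81.2%, 70.2% and 73.6% in Scd-1-/- Teff. Tcrg-C4 took 9.88% (95% Wilson interval 8.59 to 11.3), 11.2% and 13.2% in WT. Its share in Scd-1-/- libraries was 12.3% (11.1 to 13.6), 21.9% and 19.4% (18.5 to 20.4). The share of Tcrg-C4 in Scd-1-/- replicate 1 thus lay within the WT range, and those of replicates 2 and 3 above it. The share of Tcrg-C1 was 4.38% to 6.46% in WT and 6.50% to 7.88% in Scd-1-/- Teff. These intervals cover counting error only, and reads common to Tcrg-C1 and Tcrg-C2 could move counts between those genes.

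**Figure D2:**
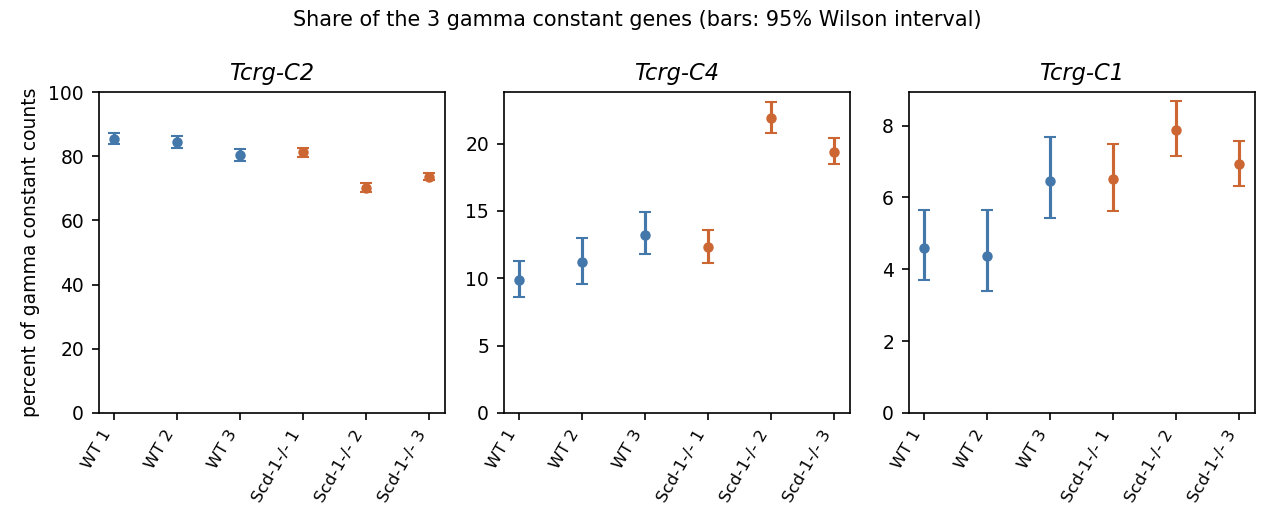
Percent of the summed counts of Tcrg-C1, Tcrg-C2 and Tcrg-C4 that each gene took in each library, WT in blue and Scd-1-/- in orange, with 95% Wilson intervals as bars and a separate vertical scale from 0 for each gene. Tcrg-C4 took 9.88% to 13.2% in WT and 12.3%, 21.9% and 19.4% in Scd-1-/- replicates 1, 2 and 3.

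Neighbouring variable and constant genes were also set against each other per length, as ratios of FPKM. The FPKM of Trgv2 was 0.504, 0.671 and 0.554 times that of Tcrg-C2 in WT and 0.477, 0.566 and 0.484 times in Scd-1-/- Teff, and these ranges overlapped. For Tcrg-V4 over Tcrg-C1 the ratio was 0.575, 0.419 and 0.570 in WT and 0.711, 0.785 and 0.592 in Scd-1-/- Teff. The ranges did not overlap, although the nearest libraries (0.575 and 0.592) were close. The joining segments that stand between them are too short to be measured well, and the γ joining segments summed to 3 to 6 counts in WT and 5 to 12 in Scd-1-/- Teff.

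**Figure D3:**
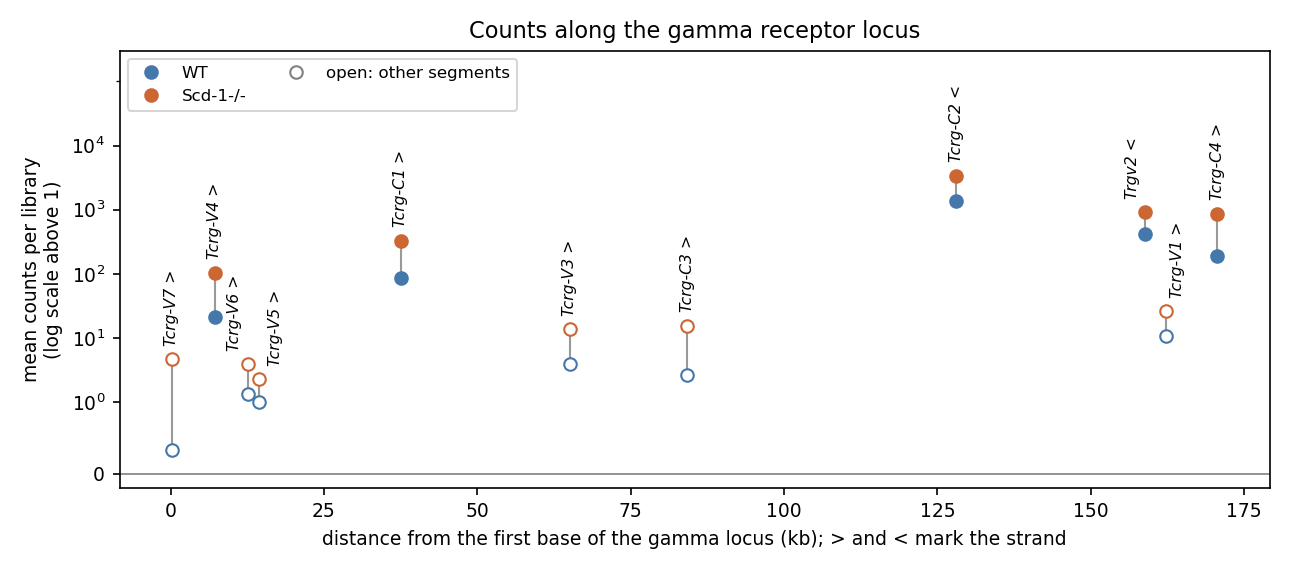
Mean counts per library (log scale above 1) of the variable and constant genes of the γ locus against the distance in kb from its first base, WT in blue and Scd-1-/- in orange, filled for the γ genes described here and open for the other segments, with the strand marked after each name. Each filled pair lies above every open pair of the same genotype, and for each gene the Scd-1-/- mean lies above the WT mean. The files name Tcrg-V1 as Gm16602.

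The other γ and δ segments, 27 rows, were tested with edgeR's quasi-likelihood test in the fit to all 17192 genes with a count. A call meant that the log2 fold change was 1 or more, up or down, and that the p before correction was under 0.001, and 0.861% of these genes met both thresholds. These are the thresholds named in the methods of the study. Of the 27, 23 had a count, 0 met the thresholds and 0 had a Benjamini-Hochberg adjusted p under 0.05, which 0.489% of all these genes had. DESeq2, limma and edgeR with the replicate number as a block also called 0, and 3 of the 23 had an unadjusted p under 0.05. In replicates 2 and 3 alone, Trav15-2-dv6-2 (log2 fold change 2.96) and Trav15-1-dv6-1 (log2 fold change 2.18) met the thresholds. Beside them, Tcrg-C3 and Tcrg-V3 (log2 fold changes 3.11 and 3.26) had edgeR Benjamini-Hochberg adjusted p of 0.015 and 0.0244 there, so that 4 of the 23 had one under 0.05. In those 4 libraries 4.26% of the 17192 genes were called, and an adjusted p under 0.05 was found for 13.9%. The 5 with the highest mean count are variable genes shared by the α and δ chains. Trav16d-dv11 had 45, 38 and 25 counts in WT and 51, 36 and 56 in Scd-1-/- Teff (log2 fold change 0.35). Trav6-7-dv9 had 67, 32 and 51 against 47, 24 and 20 (log2 fold change -0.76). Those of Trav4-4-dv10, Trav13-4-dv7 and Trav21-dv12 were -0.01, 0.52 and 0.10, and all 5 had groups that overlapped. Tcrg-C3, the remaining γ constant gene, was named after its values were seen: it had 4, 0 and 4 counts in WT and 10, 20 and 17 in Scd-1-/- Teff. Its groups did not overlap, with a log2 fold change of 2.48 (SE 0.876, edgeR, Benjamini-Hochberg adjusted p = 0.392), and it was not called with all 6 libraries. The joining and diversity segments of δ had 0 or 1 counts in each library.

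The αβ receptor genes and their CD3 and CD8 partners had log2 fold changes between -0.46 and 0.24. Of the 10 genes of this list, 9 had counts, edgeR, DESeq2 and limma called 0 in either direction, near the 0.738% of all 9627 genes that edgeR called, 1 had an unadjusted p under 0.05, and the median log2 fold change was -0.01. Trac, the α constant gene in the locus that also holds δ, had an FPKM of 571, 451 and 417 in WT and 490, 440 and 448 in Scd-1-/- Teff (log2 fold change -0.04, SE 0.156, edgeR, Benjamini-Hochberg adjusted p = 0.956). Trbc2, a β constant gene, had a log2 fold change of 0.24, and the CD3 signalling chain genes Cd3g and Cd3d -0.01 and -0.03. Cd8a, a chain of the coreceptor, lay lower in each Scd-1-/- library than in each WT library in CPM (log2 fold change -0.46, SE 0.139), with an edgeR Benjamini-Hochberg adjusted p of 0.297. Ptcra, the surrogate α chain of thymocytes, had 0 counts in every library. Set against Trac, the FPKM of Trdc was 0.00311 to 0.00457 times as high in WT and 0.0160 to 0.0381 times in Scd-1-/- Teff, and that of Tcrg-C2 0.190 to 0.271 and 0.317 to 0.707 times.

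Of the genes known to regulate the γ and δ loci, Tcf7 and Id3 were lower in Scd-1-/- Teff. In the list of 19, 17 had counts, and 2 fell and 0 rose in edgeR by the thresholds of the study. DESeq2 called 3 and limma 2 (161 and 56 genes over the whole table), 6 had an unadjusted edgeR p under 0.05, and the median log2 fold change was -0.12. In edgeR 0.239% of the 9627 genes fell, 0.738% were called in either direction and 0.114% had an adjusted p under 0.05. Tcf7, which encodes the transcription factor TCF1, had 2228, 3680 and 3146 counts in WT and 392, 306 and 295 in Scd-1-/- Teff. In the main edgeR fit this was the one regulator with an adjusted p under 0.05 (log2 fold change -3.24, edgeR, Benjamini-Hochberg adjusted p = 0.00434). At that cut edgeR had 2 regulators with no FPKM minimum (84 genes over the whole table) and 4 with the replicate block (452), and DESeq2 had 4 (266). Without Scd-1-/- replicate 3 the edgeR adjusted p of Tcf7 was 0.0581 and Tcf7 still met the thresholds. Id3, which encodes an inhibitor of E proteins, had 281, 287 and 256 counts against 122, 62 and 56 (log2 fold change -1.83, SE 0.317). Its adjusted p in the edgeR test was 0.0898, and 0.00936 with the replicate block. The Id3 call held without Scd-1-/- replicate 1 and was lost without any 1 of the other 5 libraries, where the unadjusted p lay between 0.00131 and 0.00282. Id2, which encodes the related inhibitor, had 1989, 1859 and 2233 counts in WT and 3041, 5589 and 6237 in Scd-1-/- Teff (log2 fold change 1.25). It was called with the replicate block in edgeR (Benjamini-Hochberg adjusted p = 0.0171) and not without it (0.146). Il7r and its downstream kinase Jak1, which open the γ locus in developing T cells, had log2 fold changes of 0.02 and 0.15, and Jak3, which works beside Jak1, -0.45. Stat5b, the transcription factor of that pathway, had -0.56 and an edgeR adjusted p of 0.268, or 0.0498 with the block. Rag1 and Rag2, which encode the recombinase, had 0 counts in every library. Dntt, also of this list, had 18, 31 and 29 counts in WT and 9, 2 and 1 in Scd-1-/- Teff, with no overlap (log2 fold change -2.74, edgeR adjusted p = 0.193). It was not called with all 6 libraries, and met the thresholds in replicates 2 and 3 alone (log2 fold change -4.25).

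**Figure D4:**
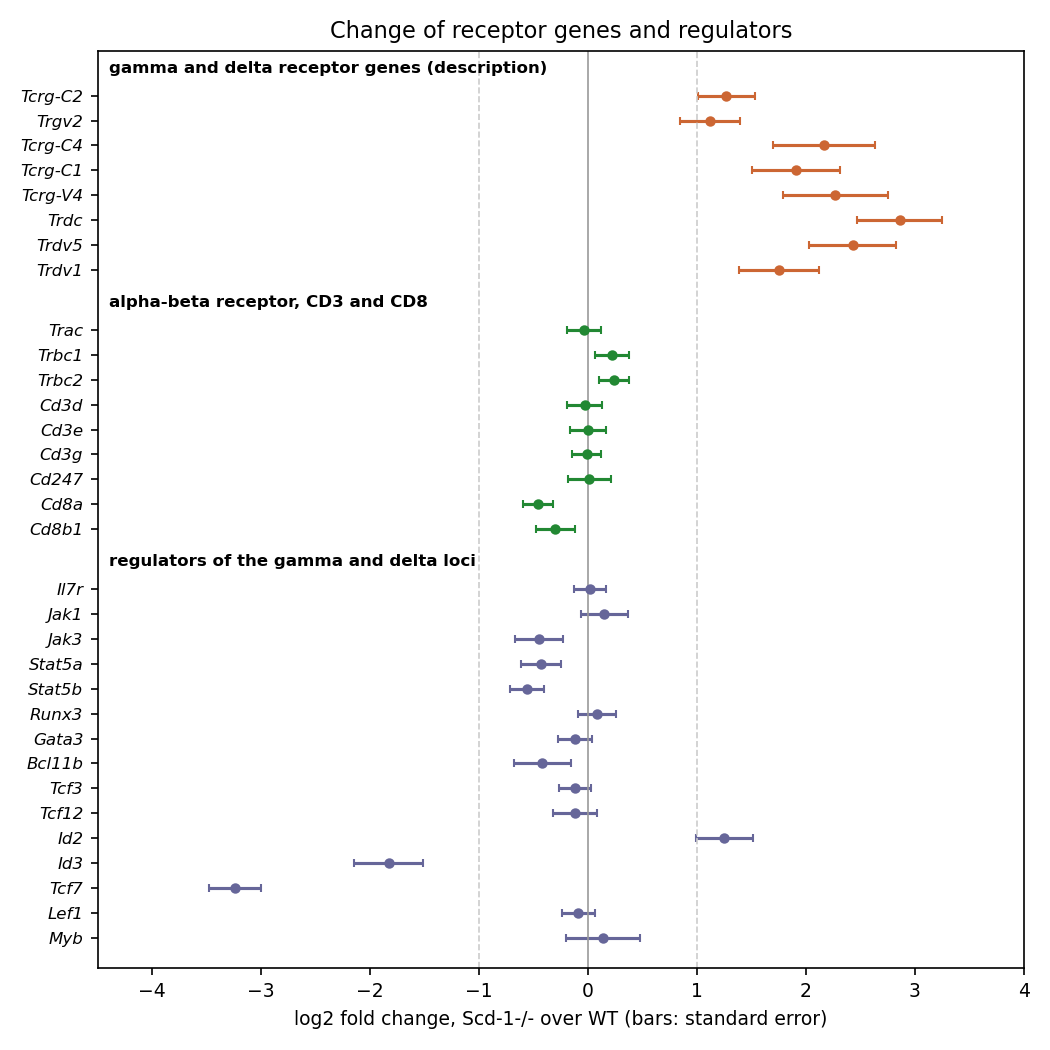
Log2 fold change of Scd-1-/- over WT with its standard error from edgeR (n = 3 per genotype) for the 8 γδ receptor genes, 9 genes of the αβ receptor, CD3 and CD8, and the 15 regulators with a mean FPKM of at least 1, with dashed lines at a change of 1 in size. The γδ genes lie between 1.12 and 2.86 and the αβ group between -0.46 and 0.24, while Tcf7 (-3.24) and Id3 (-1.83) lie far below 0.

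Markers of γδ T cells apart from the receptor were low in both genotypes. The 16 genes summed to 27.7 to 37.7 CPM in WT and 21.3 to 34.4 in Scd-1-/- Teff, and edgeR with or without the block, DESeq2 and limma called 0 of the 12 that had counts, near the 0.861% of all genes with a count that edgeR called. None of the 12 had an unadjusted p under 0.05, and their median log2 fold change was -0.27. Il23r, Il17a, Il17f and Ccr6, markers of IL-17-producing γδ cells, had 0 counts in all 6 libraries. Sox13, a transcription factor of early γδ cells, had 0, 0 and 1 counts against 0, 3 and 0, Blk at most 1, and Zbtb16 6 counts in WT replicate 3 and 0 in the other libraries. Only Etv5 reached a mean FPKM of 1 (log2 fold change -0.38), and it is also made by other cells. Next came Tmem176a and Tmem176b (log2 fold changes -0.22 and -0.31). Most markers of this list belong to particular γδ subsets.

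Of the natural killer (NK) cell markers, Tyrobp, Fcer1g, Klre1 and Cd244 were higher in Scd-1-/- Teff by the thresholds of the study, and 12 of 16 did not pass. The 16 genes summed to 49.8 to 76.7 CPM in WT and 160, 350 and 376 in the Scd-1-/- libraries, and like most of the receptor genes they were lowest in replicate 1 of that genotype. By those thresholds 4 rose in edgeR and 8 did with the replicate block (against 0.349% and 0.838% of the 17192 genes with a count, each gene read from the fit for its level). Of the 16, 0 fell (Ncr1 and Itga2 had log2 fold changes of -2.06 and -0.15). In these edgeR fits none had an adjusted p under 0.05 without the block against 10 with it, where 3.39% of the 17192 genes had one. Other fits to all 6 libraries without the block differed at that cut. Limma had 0, and edgeR at a mean FPKM of at least 5 had 3 (12 genes over the whole table). With no FPKM minimum edgeR had 6 (84 over the whole table), and DESeq2 had 9 (266). At an unadjusted p under 0.05 there were 11, DESeq2 called 9, limma called 3, and the median log2 fold change was 2.04. Over the whole table DESeq2 called 161 genes and limma 56, and no share of all genes was computed at an unadjusted p under 0.05. Tyrobp and Fcer1g, signalling adaptors of NK receptors, had log2 fold changes of 3.23 and 2.68, with edgeR adjusted p of 0.0646 and 0.0988 (0.0025 and 0.00195 with the block). For the receptors Klre1 and Cd244 the changes were 2.18 and 2.07, with edgeR adjusted p of 0.0907 and 0.0921 (0.0130 and 0.0171 with the block). Klra7, of a multigene family whose reads may be split, had a log2 fold change of 1.75, and it was called with the block (edgeR adjusted p = 0.0261) and not without it (0.118). Klrc2 and Styk1 likewise were called with the block alone (edgeR adjusted p of 0.0293 and 0.0202, against 0.113 and 0.259). Without WT replicate 2 none of the 16 was called, without WT replicate 3 or either of Scd-1-/- replicates 2 and 3 only Tyrobp was, and without Scd-1-/- replicate 1 9 were. Klrb1c, which encodes the NK marker NK1.1, had 37, 55 and 65 counts in WT and 126, 645 and 602 in Scd-1-/- Teff, with no overlap (log2 fold change 3.09). It was called with the block (edgeR adjusted p = 0.00591) and not without it (0.12). Klra1 and Klrb1b had log2 fold changes of 2.01 and 3.08, with edgeR adjusted p of 0.15 and 0.178 (0.0345 and 0.0476 with the block). Ncr1, another defining NK gene, had 0, 4 and 5 counts in WT and 0, 0 and 2 in Scd-1-/- Teff, and Klra4 and Klra8 0 to 2. Activated CD8+ T cells also make several of these genes, and the part of NK cells in the level of the receptor genes was not tested.

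Of the markers of other cell types, 34 rows of which 25 had counts, edgeR called 2 with or without the block, against 0.599% of the 17192 genes with a count without the block and 1.52% with it. DESeq2 called 2 and limma 1 (161 and 56 genes over the whole table). At an unadjusted p under 0.05 there were 7, a cut at which no share of all genes was computed. Klrg1, in the list for group 2 innate lymphoid cells and also an effector CD8+ T cell gene, rose by 4.0 on the log2 scale (edgeR adjusted p = 0.0847, and 0.0108 with the block), a call lost without WT replicate 3 or Scd-1-/- replicate 3 (unadjusted p of 0.0015 and 0.00129). The other genes of that list were not called with all 6 libraries. Il1rl1 had 12, 18 and 4 counts in WT and 29, 35 and 54 in Scd-1-/- Teff, with no overlap (log2 fold change 1.72, edgeR adjusted p = 0.328). Il13 and Kit had log2 fold changes of -1.52 and -0.86. That list summed to 6.58 to 14.2 CPM in WT and 14.2 to 29.9 in Scd-1-/- Teff, with a median log2 fold change of 1.82. Cd14 rose by 2.41 (edgeR adjusted p = 0.0955, and 0.0287 with the block) among myeloid markers, which summed to 1.27 to 4.48 CPM in WT and 4.98 to 7.22 in Scd-1-/- Teff, with Adgre1, Mpo and S100a9 at 0. With the block 1 of the 2 rows named Itgam (ENSMUSG00000030786) also had an edgeR adjusted p under 0.05 (0.0464, against 0.524 without it, log2 fold change 2.35), and the other had a log2 fold change of -0.83. The Cd14 call was lost without any 1 of WT replicates 2 and 3 and Scd-1-/- replicates 2 and 3. The B cell list summed to 314 to 605 CPM in WT and 216 to 328 in Scd-1-/- Teff, mostly from Ighm. Of it, Ms4a1 and Pax5 were at 0, whereas Ighm had 4288 to 8703 counts in WT and 2957 to 4780 in Scd-1-/- Teff, a mean FPKM of 152 (log2 fold change -0.77) and Cd79b one of 7.52 (log2 fold change -1.02). Neither was called without the block, and with it both had an edgeR adjusted p under 0.05 (0.0262 and 0.0434). Cd4 had 8, 24 and 12 counts against 5, 2 and 1, and among CD4 T cell markers, which summed to 388 to 459 CPM in WT and 412 to 480 in Scd-1-/- Teff, mostly from Ctla4, edgeR, DESeq2 and limma called 0, with 1 of 5 at an unadjusted p under 0.05. Erythroid markers summed to less than 1 CPM in each library, with none called and none at an unadjusted p under 0.05. The part of these cells in the receptor genes was not tested.

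**Figure D5:**
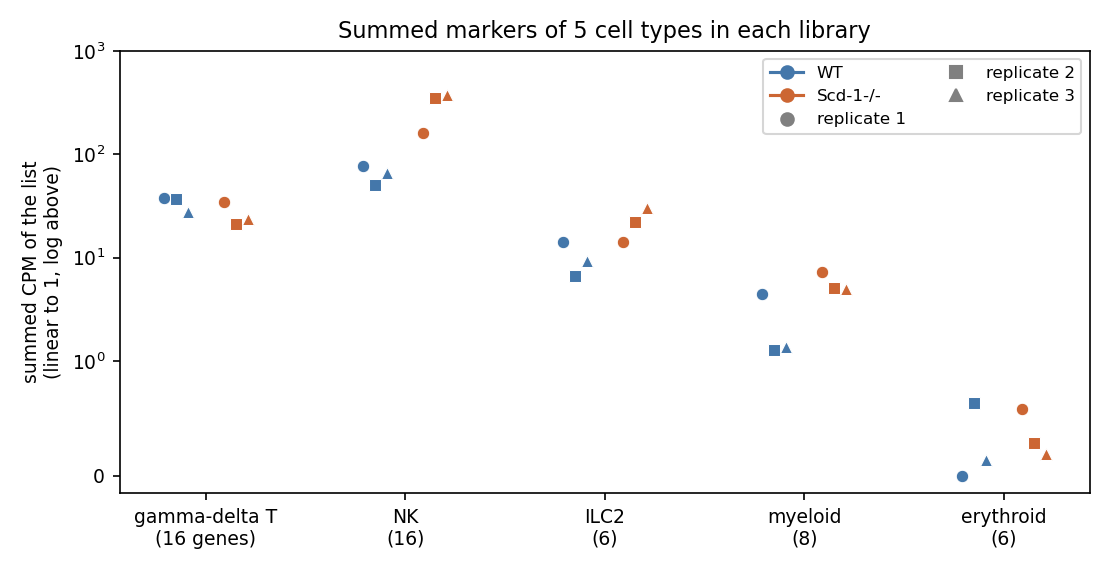
Summed CPM (linear to 1, log above) of marker genes of 5 cell types in each library, WT in blue and Scd-1-/- in orange, with a marker shape per replicate. The NK list lies at 49.8 to 76.7 in WT and 160 to 376 in Scd-1-/- Teff, while the γδ T cell list overlaps between the genotypes.

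Genes whose profile over the 6 libraries was nearest to Trdc and to Tcrg-C2 were found by the root-mean-square difference of log2 CPM values, each centred on its own mean. For Trdc these were Clnk (0.196), an adaptor of immune receptors, the cell cycle inhibitors Cdkn2b (0.290) and Cdkn2a (0.304), Klhl30 (0.337) and Tmem119 (0.344), where the median gene lay at 1.48. Clnk, the nearest, had 13, 4 and 6 counts in WT and 42, 91 and 130 in Scd-1-/- Teff. For Tcrg-C2 they included F2rl2 (0.132), a protease-activated receptor, Id2 (0.145), the NK receptor gene Klra3 (0.156) and Sh2d5 (0.174), with the median gene at 0.731. Its cassette partner Trgv2 lay at 0.170. Among the other γδ genes of the set, Tcrg-V4 was the closest to Trdc at 0.639, and Trgv2 and Trdv1 were the farthest at 0.932 and 0.955.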

How the data were processed

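The authors deposited, for each of the 6 libraries, raw counts per gene (whole numbers, not normalized) and FPKM values. Per the labels, the submitters' processing notes name FastQC, HISAT2, StringTie 1.3.0 and GRCm38, while the settings for strand and for reads matching several genes are not given in the sources used here. The deposited FPKM hold no TMM factor: the lengths they imply agreed between libraries within 1.8e-05 over 9287 genes.

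Groups and replicate numbers were read from the sample labels. The 8 genes and all lists were chosen with earlier results of these data known. Counts were fitted with edgeR 4.0.16 (R 4.3.3), quasi-likelihood test, TMM scaling and no block, on 9627 genes whose mean FPKM reached 1. For lower genes and all other γ and δ segments the fit included every gene with a count (17192). Calls needed a log2 fold change of 1 or more in either direction and a p before correction under 0.001, as in the study, and Benjamini-Hochberg adjusted p under 0.05 beside it. With 3 libraries against 3, an exact permutation test of 1 value cannot go below p = 0.1. Same-numbered libraries deviated together (r = 0.618, 0.324 and 0.493 across genes for replicates 1, 2 and 3), although WT replicate 3 with Scd-1-/- replicate 2 also had r = 0.422 and WT replicate 2 with Scd-1-/- replicate 3 had 0.19. Blocked values are given where they change a call of a named gene of the lists. The genes with the nearest profiles were chosen by their likeness to members picked in this contrast, so no test of them is given. What a number stands for is not stated.

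Named were the 8 genes, Scd1, genes of each list that were called or among the 4 with the highest mean FPKM (of the other segments, the 5 with the highest mean count), markers at 0, and the 5 nearest profiles, except that some items are not reported here. Genes outside this rule (Cd8a, Cd8b1, Cd3e, Il7r, Stat5b, Dntt, Tcrg-C3, Tcrg-V3, Trdv2-2, Trgj2, Sox13, Blk, Zbtb16, Maf, Ncr1, Klrb1b, Klrb1c, Klrc2, Styk1, Klra4, Klra8, Itga2, Il1rl1, Kit, Itgam, the segments called in replicates 2 and 3 alone and those under other observations) were named after their values were seen. Gene positions and sequences are those of GENCODE M21, matched by Ensembl identifier for 34267 of 34745 genes (98.62%), and identity was computed with edlib 1.3.9.post1. DESeq2 1.42.0 and limma 3.58.1 served as alternatives, and the fits were tested on simulated data.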

Additional observations from a re-analysis of the deposited data

How the results depend on the processing

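The log2 fold change of each of the 8 genes stayed positive under all 14 other settings (112 values), and 9 of these values moved by more than the spread between replicates. The median over the 8 was 2.04 and lay between 1.62 (limma on log2(FPKM + 1)) and 2.35 (replicates 2 and 3 alone), and between 1.83 and 2.39 with 1 library left out. Limma gave lower values for low genes, such as 2.28 for Trdc, 1.56 for Trdv5 and 1.17 for Trdv1, since the pseudocount of 1 understates their change. For the γ and δ sums, the log2 ratio of mean CPM with 1 library left out lay between 1.18 and 1.67 and between 2.54 and 3.10.

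The number of genes called over the whole table depended on the setting. Past the thresholds there were 71 genes, against 148 with no FPKM minimum, 42 at a mean FPKM of at least 5, 161 with DESeq2, 184 with the replicate block, 369 in replicates 2 and 3 alone, and 25 to 163 with 1 library left out. With an adjusted p under 0.05 there were 11 genes, against 84 with no FPKM minimum, 266 with DESeq2, 17 with limma, 452 with the replicate block, 1213 in replicates 2 and 3 alone and 2 to 182 with 1 library left out. The NK list, with 4 called, had 7 with no FPKM minimum, 9 with DESeq2, 8 with the replicate block, 11 in replicates 2 and 3 alone and 0 to 9 with 1 library left out. The regulators, with 2 called, had 4 in replicates 2 and 3 alone and 1 to 4 with 1 left out. The lists of other cell types together, with 2 called, had 1 with limma, 5 in replicates 2 and 3 alone and 0 to 3 with 1 left out. The other γ and δ segments had 2 in replicates 2 and 3 alone. The cause of these moves was not tested. The replicate block changed no call of the αβ list or of the γδ T cell markers. In replicates 2 and 3 alone neither list had a gene past the thresholds, but Cd8a and Cd8b1 (log2 fold changes -0.58 and -0.40) and the γδ marker Maf (-1.92) had an edgeR adjusted p under 0.05 (0.0166, 0.0382 and 0.0483), against 0 in either list with all 6 libraries. Of all 336 values 0 reversed. Depth limits the segments with few counts.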

Other observations

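The genes that flank both loci were looked at after the values of the receptor genes were seen, as the nearest 2 genes on each side that are no receptor segments and have at least 10 counts. None of the 8 was called by edgeR with or without the replicate block, where 0.599% and 1.52% of all 17192 genes with a count were, so that a count of 0 among 8 is near the background. On the side of Tcrg-C4, Stard3nl, at a distance of 4920 bases, had 443, 402 and 546 counts in WT and 500, 430 and 545 in Scd-1-/- Teff (log2 fold change 0.04, SE 0.168, edgeR Benjamini-Hochberg adjusted p = 0.966). Epdr1, the next gene at 238950 bases, had 11, 8 and 23 counts in WT and 18, 68 and 88 in Scd-1-/- Teff, with groups that overlapped (log2 fold change 2.00, SE 0.642). Its edgeR adjusted p was 0.352, and 0.0512 with the replicate block. Near the α and δ locus, Dad1, which encodes a subunit of the oligosaccharyltransferase, had a log2 fold change of 0.13 and Abhd4 one of -0.13. Sall2 on the other side had -0.64, lower in each Scd-1-/- library than in each WT library, with an edgeR adjusted p of 0.424.

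Tcrg-V1, which the files name Gm16602 and which lies next to Tcrg-C4, was also looked at after its values were seen, since its coding sequence was 95.1% identical to that of Trgv2. It had 15, 5 and 12 counts in WT and 15, 29 and 36 in Scd-1-/- Teff (log2 fold change 1.28, SE 0.494, edgeR Benjamini-Hochberg adjusted p = 0.443), and the groups overlapped. Its last 45 coding bases (chr13:19340410-19340454, plus strand), with the last in-frame cysteine codon in capitals, are printed for comparison with those of Trgv2 above.
Tcrg-V1: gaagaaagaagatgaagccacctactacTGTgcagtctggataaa

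Of the 50-base stretches of Tcrg-V1, 24.6% were also present in Trgv2 or Tcrg-V3. Its FPKM was 0.221, 0.0908 and 0.131 times that of Tcrg-C4 in WT and 0.118, 0.0716 and 0.0782 times in Scd-1-/- Teff, so both genotypes had far less Tcrg-V1 per Tcrg-C4 than Trgv2 per Tcrg-C2.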
